A study of Mus musculus with 16 samples.

Results

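Surface receptors and markers of macrophages were examined as a set of 10 genes among the 21887 protein-coding genes of chromosomes 1 to 19, X and Y: Csf1r, Adgre1, Itgam, Mertk, Cd68, Cx3cr1, Tyrobp, Trem2, Cd14 and Cd36. A peak was counted for a gene when it overlapped the gene's RefSeq bounds on the mouse build GRCm38, or the 10 kb on either side, by at least 1 bp. The 10 windows span 651 kb. Chromatin immunoprecipitation followed by sequencing (ChIP-seq), which recovers DNA bound by a protein or carrying a histone mark, gave 9 peak lists from 9 immunoprecipitated libraries, with 7 inputs among the 16 samples. All cells were primary macrophages grown for 5 days in medium with M-CSF from the bone marrow of adult C57BL/6 mice, so every culture received the ligand of the Csf1r product. EZH2, the methyltransferase that places H3K27me3, was mapped in wild-type cells given nigericin, a potassium ionophore, after priming with LPS, and in untreated wild-type cells. The transcription factor p53, H3K27ac, a mark of active promoters and enhancers, and H3K27me3, a mark of Polycomb repression, came from untreated wild-type cells. Libraries for SIRT1, a deacetylase, came from untreated Ezh2 knock out cells and the wild type named for them (Ezh2 wild-type), and from untreated p53 knock out cells and theirs (p53 wild-type). The sources used here do not say how the knockouts were made or how many mice were used, and no library from cells given LPS alone was analysed here. Each group held 1 library (n = 1), so no difference between groups has a replicate check and none was tested.

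These genes encode the sensing and clearing equipment of the macrophage surface. Csf1r and Cx3cr1 encode receptors for secreted or shed ligands, Cd14 a co-receptor for LPS, Mertk and Cd36 receptors for dying cells and lipids, and Trem2 a lipid-sensing receptor that signals through the adaptor encoded by Tyrobp. Itgam encodes the integrin CD11b, Adgre1 the adhesion receptor F4/80, and Cd68 a heavily glycosylated protein of late endosomes that cycles to the surface. Macrophage genes of this kind are classically driven by PU.1 together with C/EBP and AP-1 factors, and carry H3K27ac at promoters and enhancers when active.

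Promoters are shown first because the H3K27ac results turn on where peaks lie relative to gene starts. RefSeq promoter windows of GRCm38.p6, running from 250 bases before to 50 after the start, were matched for 6 of the 10 genes (Mertk, Cd36, Itgam, Cx3cr1, Cd68 and Trem2). Trem2, Mertk and Itgam are printed because an H3K27ac peak overlapped their windows. Cd68 and Cx3cr1 were added after their values were seen, as a start between close peaks and a start far from any. The windows lie at chr17:48346151-48346450 (plus strand) for Trem2, chr2:128698665-128698964 (plus) for Mertk, chr7:128062390-128062689 (plus) for Itgam, chr11:69666121-69666420 (minus) for Cd68 and chr9:120068247-120068546 (minus) for Cx3cr1. Each is written 5′ to 3′ on the gene's strand. Capitals mark matches, on either strand, to GAGGAA (the PU.1 core), TGANTCA (AP-1), TTGCNNAA (C/EBP) or CACGTG (E-box).
Trem2: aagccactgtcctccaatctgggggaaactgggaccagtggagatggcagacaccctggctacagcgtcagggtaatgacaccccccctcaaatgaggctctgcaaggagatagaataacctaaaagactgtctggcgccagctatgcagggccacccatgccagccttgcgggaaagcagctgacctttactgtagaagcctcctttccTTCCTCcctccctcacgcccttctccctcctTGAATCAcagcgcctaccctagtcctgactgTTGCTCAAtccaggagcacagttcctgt
Mertk: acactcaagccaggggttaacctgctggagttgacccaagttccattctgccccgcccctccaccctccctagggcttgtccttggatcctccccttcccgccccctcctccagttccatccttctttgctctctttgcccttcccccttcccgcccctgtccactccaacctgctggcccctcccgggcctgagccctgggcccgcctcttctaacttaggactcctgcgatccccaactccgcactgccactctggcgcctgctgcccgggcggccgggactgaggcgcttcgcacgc
Itgam: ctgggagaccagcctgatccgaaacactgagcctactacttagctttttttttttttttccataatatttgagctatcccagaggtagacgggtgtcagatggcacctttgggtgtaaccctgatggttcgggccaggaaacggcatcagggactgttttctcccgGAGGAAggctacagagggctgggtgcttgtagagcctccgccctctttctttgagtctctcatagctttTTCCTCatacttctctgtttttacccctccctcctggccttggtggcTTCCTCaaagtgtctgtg
Cd68: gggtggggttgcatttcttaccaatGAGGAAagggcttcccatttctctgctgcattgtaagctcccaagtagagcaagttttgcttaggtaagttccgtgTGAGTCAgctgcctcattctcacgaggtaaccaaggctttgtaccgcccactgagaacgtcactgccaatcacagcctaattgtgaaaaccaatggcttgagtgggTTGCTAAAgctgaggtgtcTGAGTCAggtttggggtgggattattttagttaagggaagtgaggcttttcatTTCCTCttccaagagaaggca
Cx3cr1: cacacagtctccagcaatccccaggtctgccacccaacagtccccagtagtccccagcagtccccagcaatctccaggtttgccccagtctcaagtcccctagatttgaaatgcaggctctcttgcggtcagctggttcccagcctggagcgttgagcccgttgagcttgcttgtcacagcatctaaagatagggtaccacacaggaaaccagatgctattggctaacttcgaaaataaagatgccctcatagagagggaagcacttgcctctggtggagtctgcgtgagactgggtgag

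The PU.1 core was found in 3 of the 6 matched promoters, against 28.3% of all 32851 promoters of the same length. AP-1 was found in 2 of 6, against 7.81% of all promoters, and C/EBP in 2 of 6, against 10.8%. The E-box was in none of the 6, against 7.15% of all. Itgam held 3 PU.1 cores, of which those before the start begin 84 and 15 bases upstream. Cd68 held 2 PU.1 cores, 2 AP-1 matches beginning 149 and 24 bases before the start, and 1 C/EBP match 43 bases before it. Trem2 held 1 match to each of the 3 motifs, and Mertk, Cd36 and Cx3cr1 held none. The 6 windows ranged in GC content from 66.0% in Mertk to 43.0% in Cd36. These matches describe letters and are no evidence of binding.

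All 10 genes had H3K27ac and none had H3K27me3. Across protein-coding genes, 41.6% had an H3K27ac peak in the same window and 42.7% an H3K27me3 peak. Among the 17711 genes whose windows are within the length range of the 10 (21.8 to 145 kb), the shares were 45.1% for H3K27ac and 44.6% for H3K27me3. H3K27ac alone, the state of all 10, was found at 25.7% of protein-coding genes, and 15.9% had both marks. The 10 genes held 130 of the 51604 H3K27ac peaks and 0 of the 88037 H3K27me3 peaks. Both histone lists hold only peaks with a q-value of at most 0.05.

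**Figure D1:**
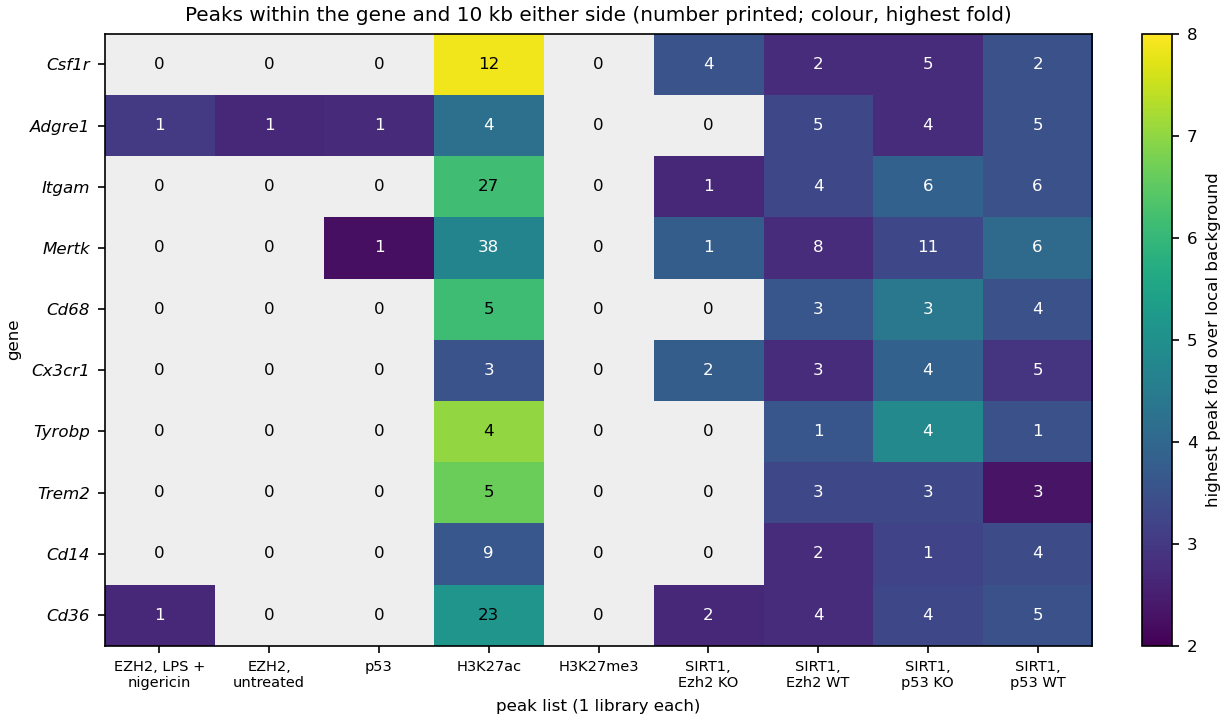
Number of peaks (printed) and highest peak fold over local background (colour, no unit) for each of the 10 genes, down the page, in each of the 9 peak lists, across, with 1 library per list. The H3K27ac column runs from 3 peaks at Cx3cr1 to 38 at Mertk, and the H3K27me3 column is 0 throughout.

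The genes differed in how much of the window was acetylated. Over the 10 the median was 41.3% of window bases under H3K27ac peaks, against a median of 0 over all protein-coding genes and of 5.96% over genes with at least 1 peak. The share exceeded the 95th percentile of all protein-coding genes (30.4%) at 7 of the 10. Trem2 was highest at 86.6%, rank 18 of 21887, followed by Tyrobp at 70.3%, rank 90, and Csf1r at 58.8%, rank 215. Cd14 had 52.3%, Itgam 45.0%, Mertk 37.6%, Cd68 33.7% and Cd36 29.1%. Adgre1 at 6.48% and Cx3cr1 at 3.73% stood apart at the low end, with ranks 4356 and 5635. With 1 library, no spread over samples is available to separate neighbours in this order. The percentages also depend on window length. Adgre1 had 9.39 kb under H3K27ac peaks in a 145 kb window, more than the 7.395 kb of Cd68 in a 22.0 kb window. In bases Cx3cr1 had least, 1.48 kb, and Mertk most, 46.7 kb.

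**Figure D2:**
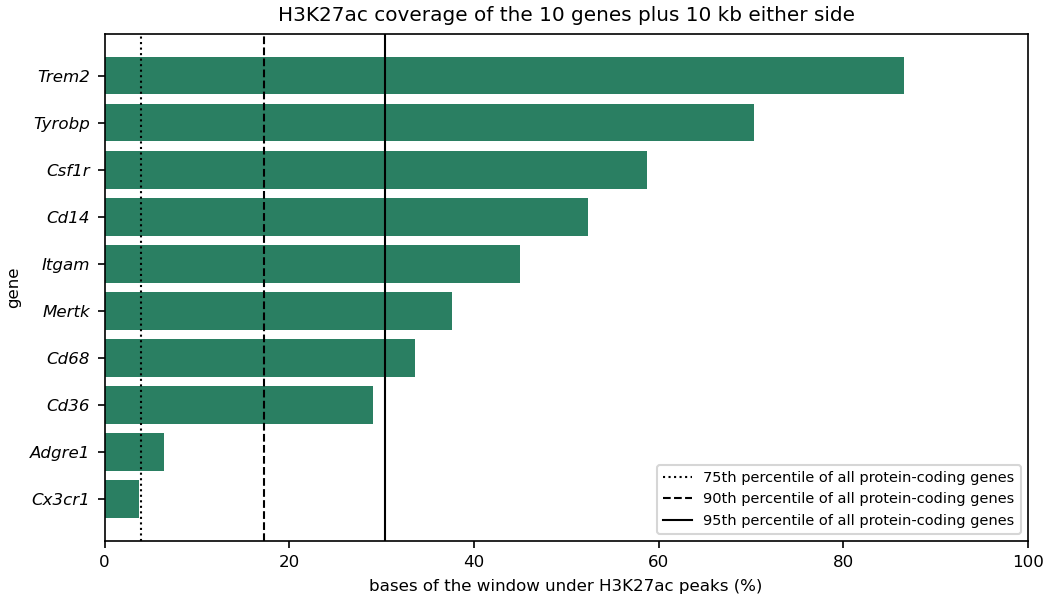
Percent of the bases of each gene's window (gene bounds plus 10 kb either side) under H3K27ac peaks, 1 bar per gene from 1 library, with lines at the 75th, 90th and 95th percentiles of all protein-coding genes (3.996, 17.2 and 30.4%). Trem2 reaches 86.6%, 7 genes pass the uppermost line, and Adgre1 and Cx3cr1 are the shortest bars.

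Peak folds are those the authors deposited, fragments at the summit over the local background. The median fold of the 130 peaks was 3.35, beside 3.34 over the whole H3K27ac list, and their median width was 1098.5 bp, beside 789 bp. Peaks of at least 5 kb made up 6 of the 130 (4.62%), at 5 of the genes, beside 4.15% of the list. In median fold and in the share of broad peaks the 130 were thus near the whole list. Fragments at the summit were recovered as whole numbers from the listed fold and p-value, and the most at any peak of a gene ranged from 20 at Cx3cr1 to 127 at Cd68.

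Among the receptors for secreted ligands, Csf1r, the M-CSF receptor that macrophages need for survival, had the highest fold of the set. Its gene lies at chromosome 18, 61105572 to 61131139. A peak of 8746 bp from 61103553 to 61112298 covered the lower-coordinate end with a fold of 7.87, 82 fragments and a −log10 q of 42.8. In all, 12 peaks lay in its window, 8 of them touching the gene and 4 below it. The farthest of those, at 61094992 with a fold of 4.88, also falls in the window of Pdgfrb, a growth factor receptor gene of stromal cells. The Csf1r gene body was 71.5% acetylated.

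Cx3cr1, the fractalkine receptor gene used to mark monocytes and tissue macrophages, had the least H3K27ac. The gene lies on the minus strand at chromosome 9, 120048683 to 120068296, and 0% of its body was covered. Its 3 peaks all lay beyond the 3′ end, between 120038817 and 120047799, with folds of 2.78, 3.53 and 3.05 on 17 to 20 fragments. The nearest of them ended 884 bp from the gene and 20497 bp from its start. The printed Cx3cr1 promoter was thus far from any H3K27ac peak in these untreated cells.

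Trem2 and its signalling partner Tyrobp were each covered whole by a single broad peak. At Trem2 (chromosome 17, 48346401 to 48352276) a peak of 14952 bp from 48345545 to 48360496 had a fold of 6.66 and 88 fragments, and only 163 peaks of the list were as wide. It contained all 300 bp of the printed promoter and reached Treml1, another gene of the TREM cluster. At Tyrobp (chromosome 7, 30413782 to 30417582) a peak of 13247 bp from 30410990 to 30424236 had a fold of 7.02 and 87 fragments. It covered Hcst, which encodes a second small adaptor, and reached into Nfkbid, so the acetylation cannot be assigned to Tyrobp alone. Its summit lay over Hcst, 4.45 kb above the lower-coordinate end of Tyrobp.

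Cd14 (chromosome 18, 36725064 to 36726815) had 9 peaks with folds of 2.30 to 3.62. The peak over the gene, from 36724136 to 36726703, had a fold of 3.40 on 54 fragments and covered 93.6% of the gene body. The peak with most fragments, 71, overlapped the neighbouring gene Tmco6 and had a fold of 2.39. Cd14 thus combined a widely covered window, 52.3%, with the second-lowest highest fold of the set, above Cx3cr1.

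Of the receptors for dying cells and lipids, Mertk, a receptor tyrosine kinase that binds bridging proteins on apoptotic cells, had the most peaks. At Mertk (chromosome 2, 128698915 to 128803162) 38 peaks were called, 35 touching the gene and 3 above it, with folds of 2.25 to 4.71. The first began 39 bases into the gene, overlapping the printed promoter by 11 bp. No peak lay in the 10 kb below the gene, and the nearest in that direction was 152621 bp from the promoter window. The acetylation at Mertk therefore began at its start and ran through the body, 42.2% of which was covered.

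Cd36, a scavenger receptor and fatty acid transporter gene on the minus strand of chromosome 5 (17781690 to 17888959), had 23 peaks, all touching the gene and none in its flanks. The peaks with the highest folds, 5.12 (17831604 to 17835791) and 4.84 (17836216 to 17839653), lay either side of the RefSeq promoter window used here, 56 and 70 bp from it. That start lies inside the gene bounds. The lowest 37.2 kb of the gene, at its 3′ end, held no H3K27ac peak.

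Itgam, the gene of integrin CD11b that pairs with the product of Itgb2 as complement receptor, had 27 peaks with folds of 2.09 to 6.17. The highest, from 128084770 to 128089099 on chromosome 7, had its summit 23.1 kb into the gene, on 38 fragments. At the start (128062640), one peak ended 61 bp below the promoter window and the next overlapped its last 28 bp. The body was 47.8% covered.

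Cd68, a short gene on the minus strand of chromosome 11 (69664213 to 69666170), had the peak with most fragments of the set. It ran from 69662823 to 69666069, with a fold of 6.13 on 127 fragments and a −log10 q of 52.8. The printed promoter lay just outside it, with that peak ending 52 bp to one side and the next, of fold 1.67, starting 96 bp to the other. Uncovered promoters with peaks within 500 bp on both sides, as at Cd68 and Cd36, made up 1.43% of the 32851 promoters, and 11.1% of promoters overlapped a peak. The peaks above Cd68 overlapped Eif4a1, a translation factor gene.

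Adgre1, the gene of the antigen F4/80 by which mouse macrophages are identified, had 4 peaks with folds of 3.15 to 4.22. They lay between 57347322 and 57359843 on chromosome 17, around the lower-coordinate end of a gene that runs from 57358581 to 57483529. The upper 124 kb of the gene held none, so 0.725% of the body was covered. The next H3K27ac peak above lay 5.84 Mb away.

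**Figure D3:**
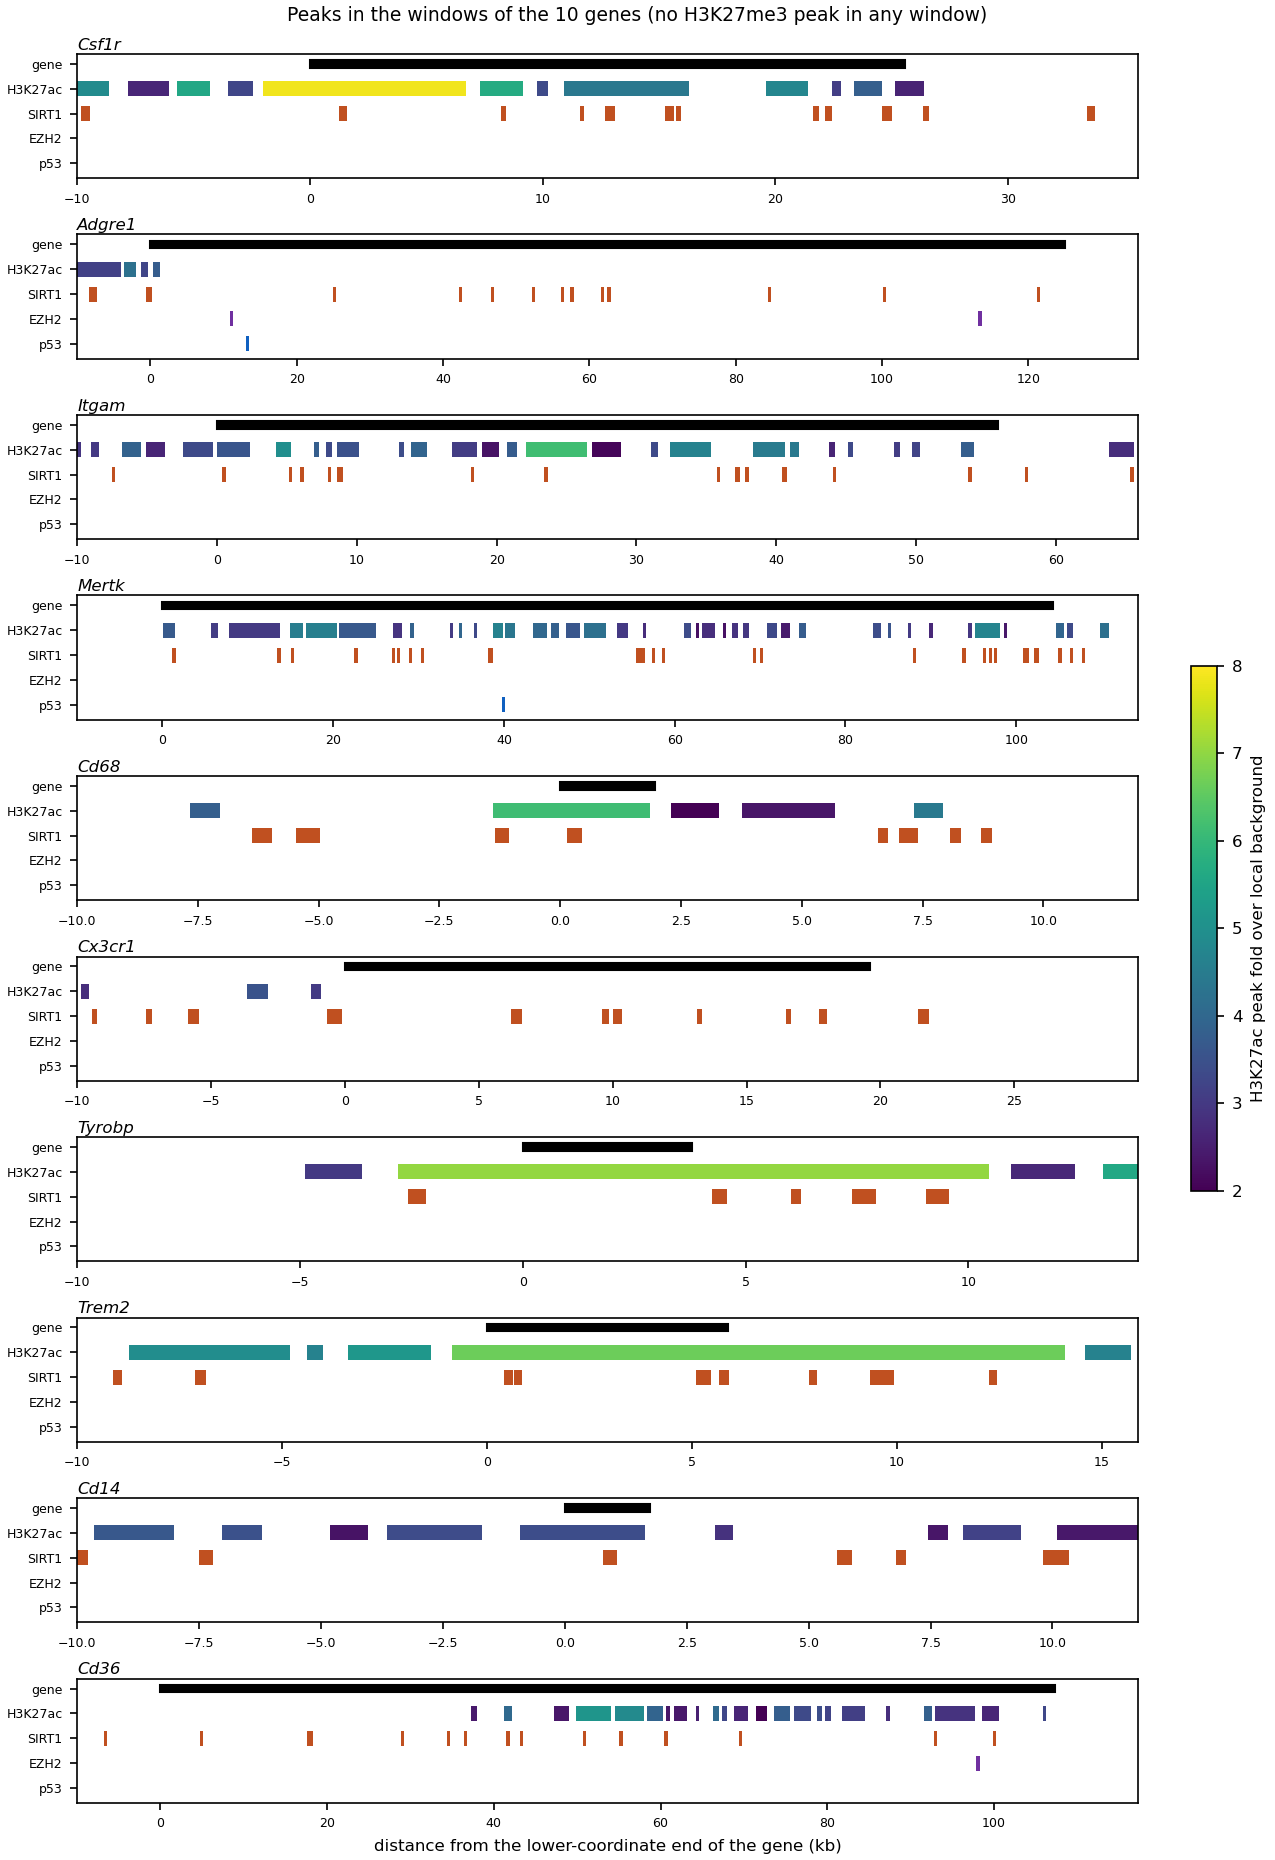
Peaks in the window of each gene, drawn by distance in kb from the gene's lower-coordinate end, with the gene as a black bar. H3K27ac peaks are coloured by fold, SIRT1 peaks of the 4 libraries are drawn together, and EZH2 peaks of both libraries are drawn together. Trem2 and Tyrobp lie inside single broad H3K27ac peaks, Mertk and Itgam carry many, and Adgre1 and Cx3cr1 have none over most or all of the gene.

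The distance to H3K27me3 varied among the genes, being over 10 kb for each since no window held a peak. The nearest H3K27me3 peak was 16.02 kb from Tyrobp, 17.5 kb from Cx3cr1, 19.1 kb from Trem2 and 20.5 kb from Itgam. It was 37.6 kb from Cd36, 43.5 kb from Cd68, 44.3 kb from Csf1r, 55.9 kb from Mertk, 82.2 kb from Cd14 and 193 kb from Adgre1. The median was 40.6 kb, and 40.1% of all protein-coding genes lay farther from the mark than that. At Csf1r the nearest H3K27me3 peak, of fold 4.36, lay inside Pdgfrb.

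EZH2 peaks were listed at Adgre1 and Cd36 alone among the 10 genes, with folds ordinary for their lists. Their windows, 145 and 127 kb, are the longest of the set, and shares at like window length were not computed. Per 100 kb the 10 windows held 0.307 EZH2 peaks in LPS and nigericin cells, against 0.322 over all protein-coding genes. In untreated cells they held 0.154, against 0.514. In cells given LPS and nigericin, 2 of the 10 genes had an EZH2 peak, against 12.5% of protein-coding genes. In untreated cells 1 of the 10 had one, against 19.6%. At a q-value of at most 0.05, 0 of the 10 had a peak in cells given LPS and nigericin, where 2.77% of protein-coding genes did, and 0 in untreated cells, where 6.46% did. At Adgre1 the peak of LPS and nigericin cells (57471771 to 57472128, fold 3.02, 12 fragments, −log10 q of 0.614) and the peak of untreated cells (57369419 to 57369876, fold 2.67, 9 fragments, −log10 q of 0.0828) lay 102 kb apart. At Cd36 only LPS and nigericin cells had a listed peak, from 17879510 to 17880020, with a fold of 2.69 on 8 fragments. The folds of the Adgre1 and Cd36 peaks of LPS and nigericin cells exceeded 73.0% and 43.4% of that list, and the fold of the untreated Adgre1 peak exceeded 53.6% of its own. Peaks on so few fragments do not separate the conditions, and the untreated list held 9771 peaks against 5128 after LPS and nigericin.

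For p53, 2 of the 10 genes had a peak, against 7.50% of protein-coding genes, and 0 at a q-value of at most 0.05, against 0.137%. These were Adgre1 and Mertk, whose windows of 145 and 124 kb are among the longest of the set. The share at like window length was not computed. The 10 windows held 0.307 p53 peaks per 100 kb, against 0.158 over all protein-coding genes. The Adgre1 peak (57371660 to 57372132) had a fold of 2.72 on 7 fragments. The Mertk peak (128738707 to 128739051), between adjoining H3K27ac peaks, had a fold of 2.24 on 6 fragments and shared 38 bp with the lower of them. Both had a −log10 q of 0.

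SIRT1 peaks were listed at every gene in 3 of the 4 libraries, in lists that reach most protein-coding genes. In Ezh2 knock out cells 5 of the 10 genes had a SIRT1 peak (Csf1r, Itgam, Mertk, Cx3cr1 and Cd36), against 44.5% of protein-coding genes. In Ezh2 wild-type cells all 10 had one, against 76.4%. In p53 knock out cells all 10 had one, against 71.8%, and in p53 wild-type cells all 10, against 70.9%. The lists differ in length, with 18170 peaks in Ezh2 knock out, 74767 in Ezh2 wild-type, 59807 in p53 knock out and 56323 in p53 wild-type cells. With each list held to its 18170 peaks of lowest p-value, a setting chosen after the data were seen, 5 genes had a peak in Ezh2 knock out cells and 5 in Ezh2 wild-type cells, against 44.5% and 42.5% of protein-coding genes. At that length 8 genes had one in p53 knock out cells, against 43.6%, and 9 in p53 wild-type cells, against 44.3%. The counts in Ezh2 knock out and Ezh2 wild-type cells were equal at that length, with Itgam the gene in common. With 5068 peaks from each list they were 2 in Ezh2 knock out cells and 0 in Ezh2 wild-type cells, so the order of these counts moved with the list length. The share of protein-coding genes at 5068 peaks was not computed. Many peaks tie at the limit in the Ezh2 wild-type and p53 wild-type lists, so which of them are kept is arbitrary.

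The SIRT1 peaks rested on very few fragments. In the windows, Ezh2 knock out cells had 10 peaks on 4 to 7 fragments and Ezh2 wild-type cells 35 on 3 to 7. In p53 knock out cells there were 45 peaks on 3 to 8 fragments, and in p53 wild-type cells 41 on 3 to 6. The −log10 q was 0 for 7 of the 10 peaks in Ezh2 knock out cells and 33 of the 35 in Ezh2 wild-type cells. It was 0 for 40 of the 45 in p53 knock out cells and 40 of the 41 in p53 wild-type cells. At a q-value of at most 0.05, 1 gene, Tyrobp in p53 knock out cells, had a SIRT1 peak, where 1.23% of protein-coding genes did. That peak (chromosome 7, 30418020 to 30418374) had a fold of 4.82 on 8 fragments and lay over Hcst, under the summit of the broad H3K27ac peak. The other libraries had 0 genes at this threshold, where 2.0% of protein-coding genes in Ezh2 knock out cells, 0.809% in Ezh2 wild-type cells and 0.667% in p53 wild-type cells had a peak.

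By gene, Mertk had 1 SIRT1 peak in Ezh2 knock out cells and 8 in Ezh2 wild-type cells, and 11 in p53 knock out cells and 6 in p53 wild-type cells. Csf1r ran the other way in the first pair, with 4 peaks in Ezh2 knock out cells and 2 in Ezh2 wild-type cells, although the knock out list was the shorter. It had 5 in p53 knock out cells and 2 in p53 wild-type cells. Tyrobp had 4 in p53 knock out cells and 1 in p53 wild-type cells, while Cd14 had 1 in p53 knock out cells and 4 in p53 wild-type cells. Trem2 had 0 peaks in Ezh2 knock out cells and 3 in each of the others. Adgre1 and Cd68 also had 0 in Ezh2 knock out cells, with 5 and 3 in Ezh2 wild-type cells. Between p53 knock out and p53 wild-type cells the counts were 4 and 5 at Adgre1, 6 and 6 at Itgam, 3 and 4 at Cd68, 4 and 5 at Cx3cr1 and 4 and 5 at Cd36. Counts this small have no replicate against which to be read. Recurrence between libraries was low. At Cd68 a p53 knock out peak (69664352 to 69664624, fold 4.41, 7 fragments) overlapped a p53 wild-type peak (69664414 to 69664662, fold 3.37, 5 fragments). In all, 4 of the 45 p53 knock out peaks (8.89%) overlapped one of the p53 wild-type list, beside 4.69% of the whole knock out list. Seen from the other side these were 4 of the 41 p53 wild-type peaks (9.76%), beside 4.97% of that list. Of the 10 Ezh2 knock out peaks 1, in Cd36, overlapped an Ezh2 wild-type peak (10%), beside 8.01% of the whole Ezh2 knock out list. It was matched by 1 of the 35 Ezh2 wild-type peaks (2.86%), beside 1.94% of that list, so both shares were near those of the lists.

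Pooled over the 10 windows, SIRT1 peaks were denser than over all protein-coding genes, with no test of the difference. The windows held 1.54 peaks per 100 kb in Ezh2 knock out, 5.38 in Ezh2 wild-type, 6.91 in p53 knock out and 6.30 in p53 wild-type cells. All protein-coding genes held 1.15 in Ezh2 knock out, 4.09 in Ezh2 wild-type, 3.50 in p53 knock out and 3.29 in p53 wild-type cells. Single genes varied. In Ezh2 knock out cells 5 of the 10 had no peak and Mertk held 0.805, with Csf1r, Cx3cr1, Cd36 and Itgam above the value of all genes. Adgre1 and Cd36 lay below that value in Ezh2 wild-type and p53 knock out cells, with the other members above it. The 634 genes with at least the median H3K27ac coverage of the 10 held more than the 10, with 3.17 in Ezh2 knock out, 8.62 in Ezh2 wild-type, 9.04 in p53 knock out and 8.02 in p53 wild-type cells. The 12775 genes without H3K27ac held 0.750 in Ezh2 knock out, 3.02 in Ezh2 wild-type, 2.26 in p53 knock out and 2.25 in p53 wild-type cells. The density at the 10 genes lay between those of these highly covered genes, which include members of the 10, and of genes without H3K27ac in all 4 libraries. The part of H3K27ac in the SIRT1 density was not tested.

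**Figure D4:**
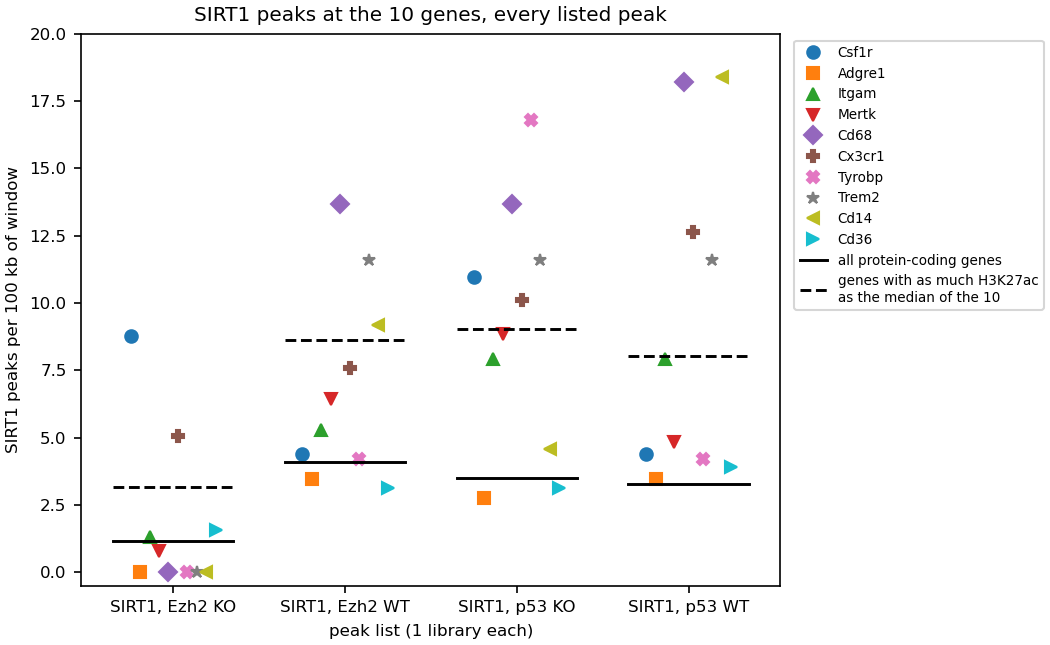
SIRT1 peaks per 100 kb of window for each of the 10 genes (symbols) in each of the 4 SIRT1 libraries, with the value over all protein-coding genes (solid line) and over genes with at least the median H3K27ac coverage of the 10 (dashed line). Most symbols in the last 3 libraries lie above the solid line, and 5 genes are at 0 in Ezh2 knock out cells.

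Within the windows, SIRT1 summits fell in H3K27ac peaks for 5 of 10 peaks (50%) in Ezh2 knock out cells and 16 of 35 (45.7%) in Ezh2 wild-type cells. The Wilson 95% intervals, which cover counting error only, were 23.7 to 76.3% in Ezh2 knock out cells and 30.5 to 61.8% in Ezh2 wild-type cells. In p53 knock out cells the share was 23 of 45 (51.1%, 37.0 to 65.0%) and in p53 wild-type cells 15 of 41 (36.6%, 23.6 to 51.9%). H3K27ac peaks covered 32.8% of the window bases, a share pooled over all windows, so that long windows weigh most. The intervals treat peaks as independent, although 11 of the 45 peaks in p53 knock out cells lay in the Mertk window. For both reasons the intervals cannot decide whether any library differs from 32.8%, and this was not tested.

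Among ligands and partners of these receptors, both marks were found. Of 12 such genes, 9 had H3K27ac, against 41.6% of protein-coding genes, and 6 had H3K27me3, against 42.7%. These counts were not tested against the shares. The highest H3K27ac folds were at Hcst (7.02, the peak shared with Tyrobp), Syk (6.98), the kinase downstream of Tyrobp, Itgb2 (6.01), the partner of Itgam, and Tlr4 and Apoe (4.89 each). Csf1, the gene of the ligand that was supplied in the medium, had no H3K27ac peak and was 45.1% covered by H3K27me3, with a highest fold of 5.73. Cx3cl1, the ligand of Cx3cr1, likewise had no H3K27ac and had an H3K27me3 fold of 7.17. Il34, the other Csf1r ligand, named after its values were seen, had an H3K27me3 fold of 3.21. Gas6, a bridging ligand of Mertk, had both marks in its window, with folds of 4.08 for H3K27ac and 4.69 for H3K27me3. Of its 2 H3K27ac peaks, 0 touched the gene, so the acetylation cannot be assigned to Gas6. Thbs1, whose product binds that of Cd36, also had both marks, with folds of 3.69 for H3K27ac and 3.42 for H3K27me3. Syk had an H3K27me3 fold of 3.34 beside its H3K27ac.

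Of 14 other macrophage surface genes, 11 had H3K27ac, against 41.6% of protein-coding genes, and 3 had H3K27me3, against 42.7%. The highest H3K27ac folds were at Sirpa (10.003), the receptor for the don't-eat-me signal CD47, Siglec1 (8.36), Msr1 (6.53) and Cd200r1 (6.34). H3K27me3 lay in the windows of Cd86, a co-stimulatory ligand gene, with a fold of 10.9, of Siglec1 with 5.48 and of Sirpa with 4.01. The Cd86 window also held 20 H3K27ac peaks, 18 of them touching the gene. Whether the H3K27me3 peaks touch these genes was not tested, so the mark cannot be assigned to Cd86. Cd163, Marco and Timd4, markers of particular tissue macrophages named after their values were seen, had neither mark. The median H3K27ac coverage was 41.3% for the 10 receptors and markers, 21.1% for these 14 and 16.3% for the ligands and partners.

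The cell type given in the labels was checked against marker lists. All 12 macrophage markers (the 10 genes, Spi1 and Lyz2) had H3K27ac and 0 had H3K27me3. The 10 genes repeat the result above, so only Spi1 (62.3% covered by H3K27ac) and Lyz2 (67.8%) add to this check. H3K27ac also lay in the windows of 6 of 10 T and B lymphocyte, 2 of 8 neutrophil and 1 of 6 erythroid markers. It lay in those of 5 of 8 stromal and endothelial and 3 of 6 dendritic markers. The share over all protein-coding genes was 41.6%. Median coverage of those lists was 1.50% for lymphocyte, 0 for neutrophil and erythroid, 11.8% for stromal and endothelial and 0.531% for dendritic markers. The highest coverage was 65.2% for lymphocyte (Ms4a1), 1.26% for neutrophil and 8.31% for erythroid markers. It was 24.2% for stromal and endothelial and 55.4% for dendritic markers (Xcr1). The windows of single markers of other lists were thus covered as widely as those of some of the 10 genes. Of the 8 H3K27ac peaks in the Xcr1 window 2 touched the gene, and of the 13 in the Ms4a1 window 7 did. In the same order of lists, H3K27me3 lay at 6, 4, 3, 5 and 3 genes, against 42.7% of protein-coding genes. Counts near these shares say little about cell type. Whether other cells contributed to the acetylation of the 10 genes was not tested.

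**Figure D5:**
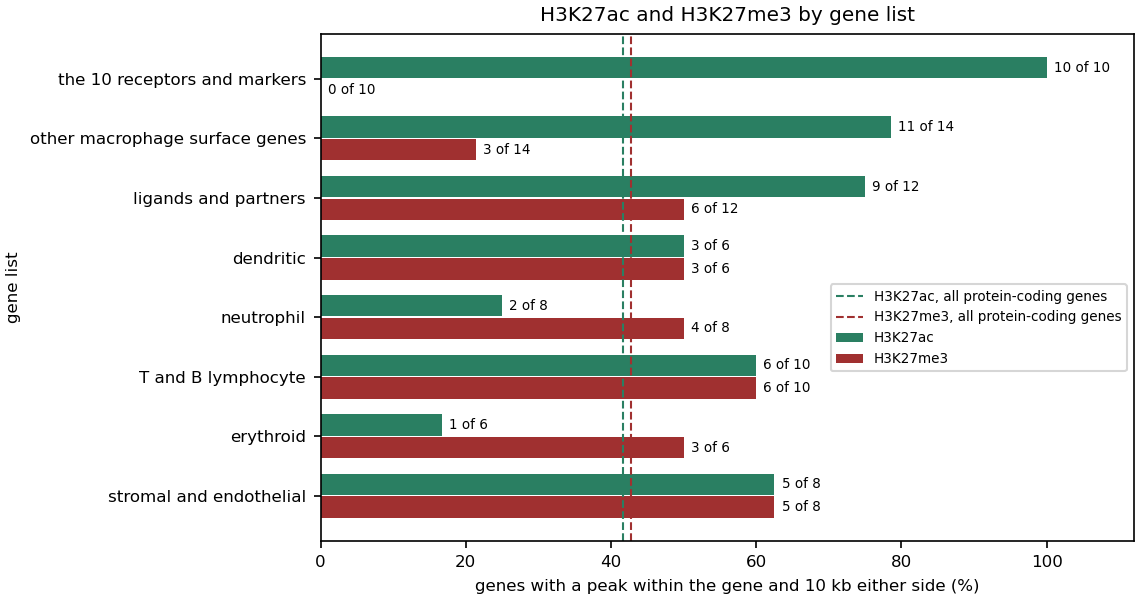
Percent of the genes of each list with an H3K27ac (green) or H3K27me3 (red) peak in the gene or 10 kb either side, with the counts printed and dashed lines at the shares of all protein-coding genes (41.6% for H3K27ac and 42.7% for H3K27me3). The 10 receptors and markers are at 10 of 10 for H3K27ac and 0 of 10 for H3K27me3.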

How the data were processed

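Macrophage ChIP-seq peak lists, 1 per immunoprecipitated library and none pooled, were used as deposited. The submitters' processing notes name MACS2, deepTools and GRCm38/mm10. The sources used here do not give versions, aligner, read filters, read totals or which input served which list. The deposited fold column is a ratio of summit to local background, the deposited −log10 columns hold each peak's p-value and q-value, and the deposited score column was not used for results. The summit offset was taken from the deposited lists. The EZH2, p53 and SIRT1 lists are not limited on q, so their lengths move with depth. Summit fragments were recovered from fold and p-value to a tolerance of 0.0001 in −log10 p, and the recovery was checked on simulated data. Coordinates are 1-based.

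Gene bounds and promoters came from RefSeq tables of the same build. Bounds carry no strand, so the starts of Csf1r, Adgre1, Tyrobp and Cd14 are not stated. Peaks were counted with Python 3.11.15, numpy 2.4.6, pandas 2.3.3 and scipy 1.17.1 over 21887 protein-coding genes. No test across groups was made, since each group held 1 library. The members, gene lists and motifs were chosen with earlier results of these data known. All 10 members are named, and from the other lists up to 4 genes (2 for other cell types) with the highest fold of each histone mark. Apoe, Syk for H3K27me3, Il34, Cd163, Marco and Timd4 lie outside that rule and were named after their values were seen. Alternatives were a flank of 5 kb or none, a q-value of at most 0.05, the summit or 50% of the peak inside the window, and lists of equal length. 2 more were chosen after seeing the data.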

Additional observations from a re-analysis of the deposited data

How the results depend on the processing

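Counts of genes with a peak were held within 1.5 times in all 9 lists with no flank, with a 5 kb flank, with the summit or 50% of the peak inside the window, and with windows cut at neighbouring protein-coding genes (chosen after seeing the data). Without a flank 9 genes kept H3K27ac, since Cx3cr1 has none in its bounds. The SIRT1 counts without a flank were 4 in Ezh2 knock out, 7 in Ezh2 wild-type, 8 in p53 knock out and 7 in p53 wild-type cells. With a 5 kb flank they were 4, 9, 10 and 8 in the same order. At a q-value of at most 0.05 the count was 0 for EZH2 in LPS and nigericin cells, 0 for EZH2 in untreated cells, 0 for p53, 0 for SIRT1 in Ezh2 knock out cells, 0 in Ezh2 wild-type cells, 1 in p53 knock out cells and 0 in p53 wild-type cells. With 5068 peaks from each list the SIRT1 counts were 2 in Ezh2 knock out, 0 in Ezh2 wild-type, 4 in p53 knock out and 2 in p53 wild-type cells. No share of protein-coding genes was computed at 5068 peaks, so counts at that length have no background beside them. At the Ezh2 knock out list's length, chosen after seeing the data, the Ezh2 wild-type count was 5. The median H3K27ac coverage was 59.6% with no flank, 46.9% with 5 kb and 7.30% with 5068 peaks, where 7 genes kept a peak. The H3K27me3 count and coverage were 0 under every setting. The q-value limit and the lists of equal length use fewer peaks, and the smaller flanks shorter windows. The source of each shift was not tested. No paired analysis was possible because each group held 1 library, and for the same reason no replicate could be left out. SIRT1 peaks of 3 to 8 fragments limit what can be said of single genes.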

Other observations

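Markers of other cell types showed H3K27ac at some genes and H3K27me3 at others. Among T and B lymphocyte markers, the highest H3K27ac folds were 6.09 at Ms4a1 and 3.66 at Cd79a, and the highest H3K27me3 folds were 10.9 at Pax5 and 7.66 at Ebf1, transcription factors of B cells. Among neutrophil markers H3K27ac lay in the windows of Ngp (4.89) and Cxcr2 (2.30), and H3K27me3 was highest at Mpo (6.27) and S100a9 (4.82). The Ngp peak lay outside the gene bounds. Among erythroid markers H3K27ac lay in the window of Klf1 (3.77), and H3K27me3 was highest at Slc4a1 (7.91) and Epor (6.45). Of the 3 H3K27ac peaks in the Klf1 window, 0 touched the gene. Among stromal and endothelial markers H3K27ac was highest at Kdr (6.08) and at Pdgfrb (4.88, the peak shared with Csf1r), and H3K27me3 at Pdgfrb (9.63) and Pdgfra (9.39). Among dendritic markers H3K27ac was highest in the windows of Xcr1 (4.57) and Clec9a (4.20), and H3K27me3 at Zbtb46 (8.62) and Flt3 (4.69). Of the 8 H3K27ac peaks in the Xcr1 window 2 touched the gene, and of the 11 in the Clec9a window 3 did.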
